A study of Gallus gallus with 5 samples.

Results

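Inside chromatin that was open in both sorted populations of the embryonic chick retina, 886 summits recurred in all libraries of one sorted population and were missing from all libraries of the other. A summit is the base of a local maximum of signal within an accessible interval, and an interval can hold several. Of these summits, 344 belonged to ThrbCRM1-positive cells (positive-specific) and 542 to ThrbCRM1-negative cells (negative-specific). They lay in 819 of 25495 shared regions, which are stretches of the numbered chromosomes where an interval among the strongest 50000 was found in each of the 5 lists. A positive-specific summit was taken from positive replicate 1, had a summit within 100 bp in positive replicates 2 and 3, and had none within 250 bp in either negative library. Negative-specific summits were chosen in the same way from negative replicate 1, with a match in negative replicate 2 and none in the 3 positive libraries. The choice used the position of every summit in all 5 lists and, for the regions, fold enrichment, so the presence of a summit in one population and not the other is a description here and no test of it is given.

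Chick (Gallus gallus) retinas were taken at embryonic day 5, co-electroporated with a ThrbCRM1-GFP and a CAG-Cherry plasmid and kept in explant culture for 48 h. Flow cytometry then gave Cherry-positive, GFP-positive cells (ThrbCRM1-positive, 3 libraries) and Cherry-positive, GFP-negative cells (ThrbCRM1-negative, 2 libraries), and ATAC-seq libraries, made by letting the transposase Tn5 insert into open DNA, were sequenced. Both plasmids were given to both groups, and sorting on Cherry kept cells that expressed the CAG-Cherry plasmid. The negative cells were defined by the lack of a detected GFP signal and may include cells without the ThrbCRM1-GFP plasmid, so they are not one named cell type. The labels do not say whether the libraries of a group came from separate embryos, so the spread between libraries may be technical.

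ThrbCRM1 is an enhancer of Thrb, which encodes a thyroid hormone receptor needed for the development of some cone photoreceptors. The enhancer is active in restricted progenitor cells that give rise to cones and horizontal cells, and Otx2 and Onecut1, both homeodomain transcription factors, are known to act through it. Enhancers and promoters are accessible because bound factors displace nucleosomes, and one open region can hold several such sites, each of which can appear as a summit of its own. A region can therefore be listed as open in both populations while the summits within it differ.

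The lists give no read counts, so sequencing depth is unknown. They held 126834, 107705 and 99859 summit rows in positive replicates 1, 2 and 3, and 117660 and 155087 in negative replicates 1 and 2. The lists of negative replicate 2 and positive replicate 1 were thus the longest of their groups, and a summit is more easily absent from a short list. Fold enrichment is the authors' value for each summit over the local background of the same library. Values of different libraries are printed side by side below and in the figures, without being brought to one scale. Their sizes therefore do not measure a difference between libraries or populations. Positions are in galGal5 and count from 1. The gene table used here describes another assembly, GRCg7b, so genes and sequences at the summits are not analysed here. The library names in the lists are of 2 forms, one in replicate 1 of each group and the other in the remaining 3 libraries, so each form holds both populations.

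Most summits in these regions were common to both populations. Positive replicate 1 had 51031 summits in the shared regions, of which 32845 recurred in both other positive libraries and 27484 (83.7% of the recurring ones) had a match within 100 bp in all 4 other lists. Such a summit of replicate 1 is called common here, in the positive library for positive-specific and in the negative library for negative-specific members, and starting from another library can give other common summits. The 344 positive-specific summits are 0.674% of all summits of that library in shared regions and 1.05% of the recurring ones. Negative replicate 1 had 46546 summits there, of which 37123 recurred in negative replicate 2 and 27211 (73.3%) were found in all 5 lists. The 542 negative-specific summits are 1.16% of all and 1.46% of the recurring ones. The remaining recurring summits were neither common to all lists nor specific, with a summit of the other population within 250 bp in some list.

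Which direction had more members changed with part of the processing, though negative-specific members were the more numerous at most settings. When every list was shortened to its 99859 summits of highest fold enrichment, 502 positive-specific and 320 negative-specific summits were found, which turns the order round. With the strongest summit of each interval alone the order turned as well, at 295 positive-specific and 213 negative-specific summits. It also turned with replicate 1 of each group alone, at 6115 and 4255. Leaving out one library removes a condition and raised the counts to between 629 and 1086 positive-specific and between 776 and 2147 negative-specific summits. In each of these runs the negative-specific summits were the more numerous. The counts moved most without negative replicate 2 (1086 positive-specific) and without negative replicate 1 (2147 negative-specific). The numbers 344 and 542 therefore do not rank the populations.

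The highest positive-specific summits stood inside intervals that the negative lists also held. The 10 leading members, those of lowest mean rank among all summits of their own lists, had fold enrichments of 5.76 to 10.5 in the positive libraries. All 10 sites were covered by an interval in both negative lists, whose nearest summits were 255 to 501 bp away. The first member, on chromosome 2 at 78456657, had fold enrichments of 9.21, 9.14 and 9.58 in positive replicates 1, 2 and 3. The nearest negative summits were 365 and 501 bp away, with fold enrichments of 7.66 and 10.3 over the backgrounds of negative replicates 1 and 2. The region (78455749 to 78457056) thus held high summits in every library. The second member, on chromosome 3 at 48823659, had 8.74, 7.07 and 8.64 in the positive libraries, and the nearest negative summits were 363 and 286 bp away with 11.4 and 9.97.

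The next 2 leading members lay beside a common summit. The third, on chromosome 2 at 116851340, had fold enrichments of 7.52, 7.45 and 8.77 in the positive libraries and stood 286 bp from a summit shared by all 5 lists. The fourth, on chromosome 3 at 73182340, had 6.31, 7.07 and 10.5 and was the strongest summit of its region in all 3 positive libraries. The matches in positive replicates 2 and 3 were 2 and 3 bp from it, and the negative summits closest to it were 364 and 371 bp away with 5.40 and 7.02. Of the 10, no other member was the strongest summit of its region in every positive library. The last of the 10, on chromosome 4 at 82422575, had 6.67, 5.91 and 7.33 in the positive libraries, and the closest summits of the negative libraries, 320 and 323 bp away, had 11.4 and 13.5.

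**Figure D1:**
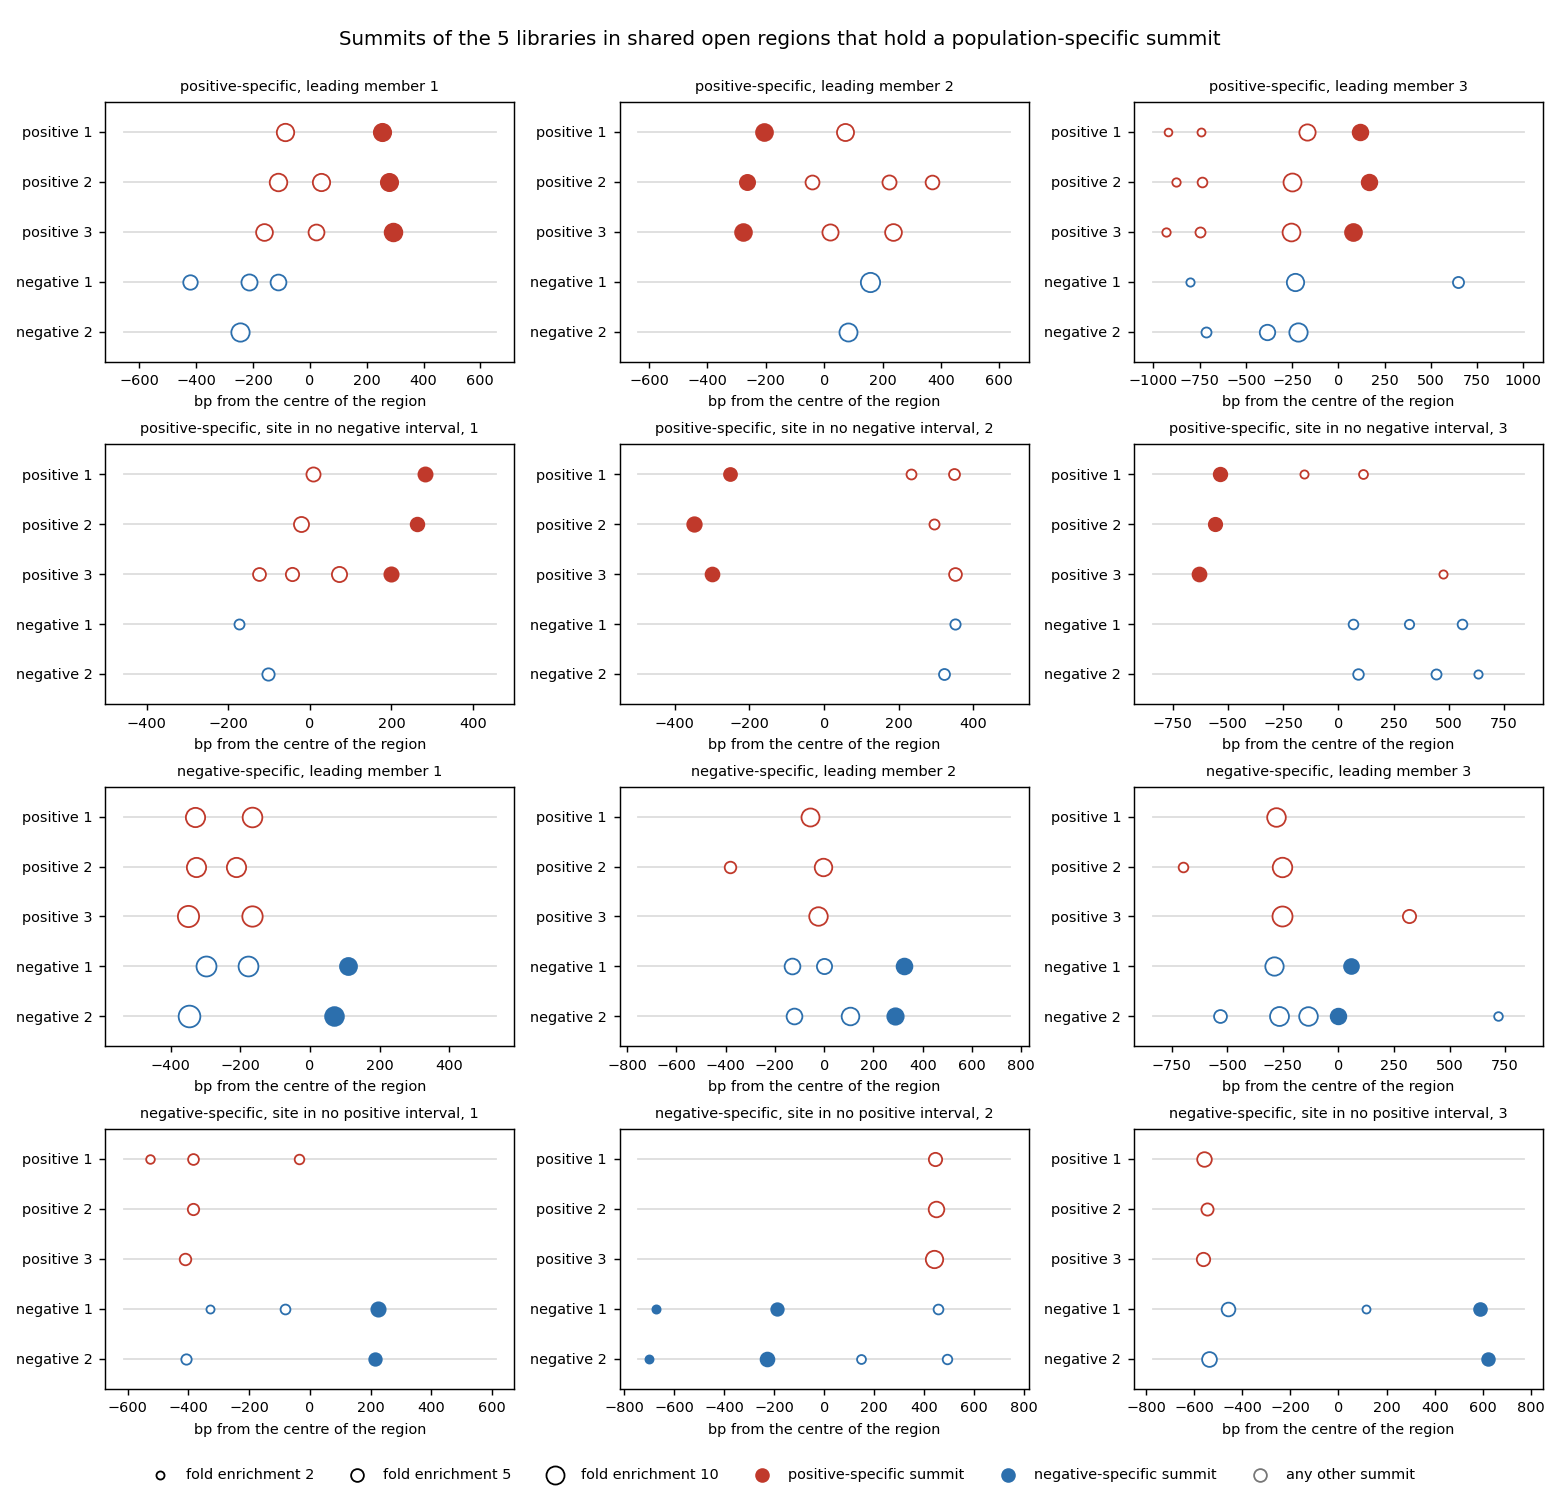
Each panel is 1 shared region, with the 5 libraries from top to bottom and the position of their summits in bp from the centre of the region on the horizontal axis; the area of a circle is proportional to fold enrichment over the local background of that library, filled circles are the population-specific summits and their matches, and the grey line spans the region. Within each direction (positive-specific above, negative-specific below) the upper panels show the 3 leading members, whose sites lie in intervals of every list of the other population, and the lower panels the first 3 members at sites in no such interval.

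A second kind of positive-specific summit lay outside every negative interval. There were 160 such members (46.5%), 134 (39.0%) in an interval of both negative lists and 50 (14.5%) in an interval of one of them. The first 3 of the 160, picked after their values were seen, had fold enrichments of 5.15 to 6.45 in the positive libraries. The first, on chromosome 4 at 43484528, had 6.13, 5.69 and 6.25, with the nearest negative summits 457 and 386 bp away at 3.11 and 4.65. The second, on chromosome 13 at 15494407, had 5.15, 6.45 and 5.90 and was the strongest summit of its region in all 3 positive libraries, while the nearest summits in the negative lists were 603 and 574 bp away at 3.24 and 3.69. The third, on chromosome 1 at 117979741, was also the strongest of its region in the positive libraries, with 5.62, 5.50 and 5.94. In the negative lists the nearest summits were 600 and 624 bp from it, at 2.90 and 3.44. All 3 regions were in both negative lists, but with intervals that did not reach these summits.

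Among negative-specific summits the leading members were again mostly inside intervals of the other population, whereas the bulk was not. Of the 10 leading members, 8 lay in an interval of all 3 positive lists and 2 in none, with fold enrichments of 4.80 to 10.8 in the negative libraries. The first, on chromosome 4 at 25150912, had 8.86 and 10.8 in negative replicates 1 and 2. In the positive libraries the nearest summits were 277, 322 and 276 bp away, with fold enrichments of 11.9, 11.4 and 12.7. The second, on chromosome 1 at 169060567, had 7.63 and 8.22, and the nearest positive summits were 381, 331 and 348 bp away with 9.94, 9.42 and 10.5. The fourth, on chromosome 14 at 2372182, had 6.28 and 6.45 with a match 1 bp away, and was one of 11 negative-specific members that lay between common summits.

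The last 2 of the leading members were the ones outside all positive intervals, and both were the strongest summit of their region in both negative libraries. The ninth, on chromosome 3 at 89476943, had fold enrichments of 6.27 and 4.83. Its nearest positive summits were 260, 610 and 636 bp away, at 2.84, 3.96 and 4.11. The tenth, on chromosome 3 at 42085024, had 4.80 and 5.85 in the negative libraries. The nearest summits of the positive libraries were 632, 635 and 630 bp away, at 5.42, 7.46 and 9.27. In each positive library the neighbouring summit was thus higher beside the tenth member than beside the ninth. Over all 542 members, 380 (70.1%) lay in no positive interval, 126 (23.2%) in an interval of 1 or 2 positive lists and 36 (6.64%) in one of all 3.

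Taken per library, the site of a positive-specific summit was covered by an interval of negative replicate 1 in 47.7% and of negative replicate 2 in 44.8% of cases (mean 46.2% ± 2.06, SD, n = 2). For all summits of positive replicate 1 in shared regions the shares were 93.8% and 94.3%. The site of a negative-specific summit was covered in 26.4%, 11.3% and 12.5% of cases in positive replicates 1, 2 and 3 (mean 16.7% ± 8.39, SD, n = 3), against 94.7%, 89.1% and 89.4% for all summits of negative replicate 1. These shares are tied to the choice, since a summit without a neighbour in a list is less often inside an interval of it, and they are given without a test. Positive replicate 1 covered the most negative-specific sites, and it also has the longest list of the 3 positive libraries. The intervals of positive replicates 1, 2 and 3 spanned 40.1, 29.3 and 29.5 Mb. Those of negative replicates 1 and 2 spanned 40.6 and 45.9 Mb. The part of this extent in the shares was not tested.

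Population-specific summits had lower median fold enrichments than all summits of the 25495 shared regions. The median fold enrichment of the positive-specific summits was 3.23, 3.20 and 3.44 in positive replicates 1, 2 and 3, where all summits in shared regions had medians of 4.21, 4.44 and 4.96. That of the negative-specific summits was 2.47 in both negative libraries, where all summits had medians of 4.61 and 4.999. Relative to the strongest summit of the same region and library, positive-specific members reached 61.0%, 59.2% and 60.9% at the median (mean of the 3 libraries 60.4% ± 0.987, SD), and negative-specific members 44.9% and 37.9% (mean of the 2 libraries 41.4% ± 4.93, SD). Members that were not the strongest of their region had medians of 55.8%, 53.2% and 55.6% in the positive libraries (positive-specific) and 43.4% and 36.9% in the negative libraries (negative-specific). All summits of shared regions that were not the strongest had 64.1%, 65.1% and 66.0% in the positive and 64.2% and 59.7% in the negative libraries. Of the members, 23 positive-specific (6.69%) and 14 negative-specific ones (2.58%) were the strongest summit of their region in every library of their population, and 16 of the 23 and 7 of the 14 lay in no interval of the other population. In positive replicate 1, 25535 of 51031 summits in shared regions were the strongest of their region. Members were 0.192% of these and 1.16% of the others. In negative replicate 1, 25525 of 46546 were the strongest, with 0.0901% and 2.47% members. The choice bears on these shares, since a summit near one of the other population was left out.

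**Figure D2:**
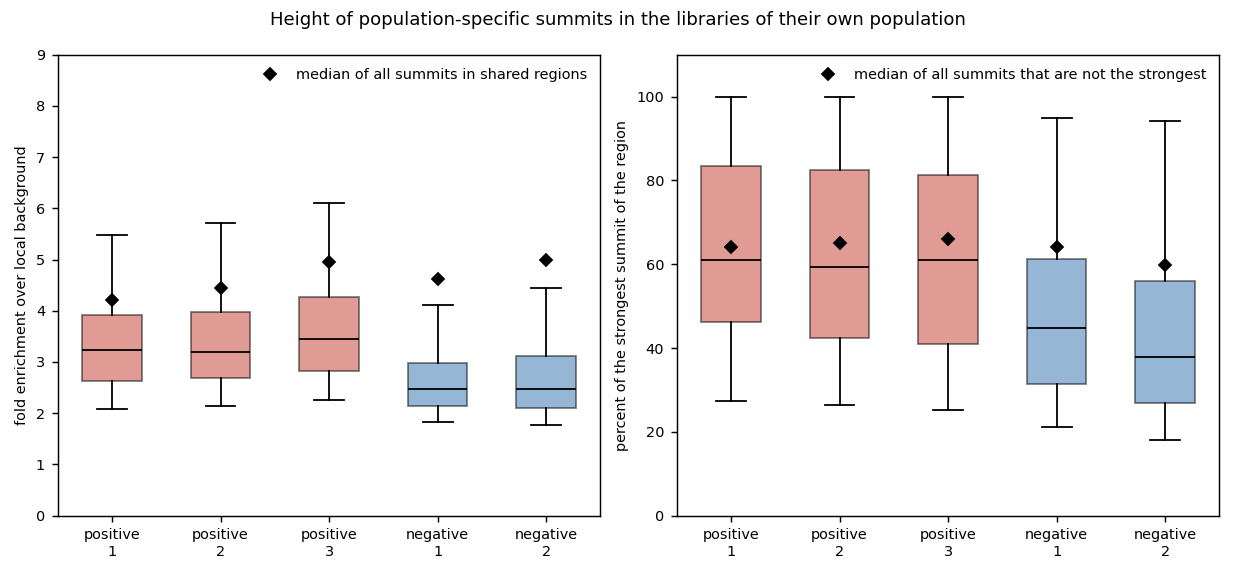
The left panel shows the fold enrichment of population-specific summits in each library of their own population, and the right panel the same value in percent of the strongest summit of the region in that library; boxes span the quartiles with the median, whiskers the percentiles 5 and 95, and diamonds mark the median of all summits in shared regions (left) or of all that are not the strongest (right). The boxes of the positive libraries have medians of 3.20 to 3.44 and those of the negative libraries 2.47, all under their diamonds.

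Most members passed a stricter limit on the q value than that of the lists. The same share over all recurring summits is not given here, so this does not set members apart from other summits. The weakest −log10 q value of a positive-specific member over its 3 libraries had a median of 5.13, and 314 members (91.3%) had a q value of 0.01 or less in every positive library. For negative-specific members the median was 3.41, and 451 (83.2%) passed 0.01 in both negative libraries. The largest distance between matched summits, which the choice caps at 100 bp, had a median of 48 bp over the 2 matches of positive-specific members and 32 bp for the single match of negative-specific ones. Some matches were shared, since 16 positive-specific and 20 negative-specific members had the same matched summit in another library as a neighbouring member. Near the 100 bp limit, 28 positive-specific summits had their farthest match in the last 10 bp before the limit and 19 further summits missed it by at most 10 bp, and 27 and 16 did so among negative-specific ones. A limit of 50 bp gave 184 and one of 200 bp 555 positive-specific summits, so the count depended on it. Near the 250 bp limit, 46 positive-specific members lay at most 25 bp inside it and 56 summits at most 25 bp outside. On the negative-specific side the numbers were 67 and 80. Those just inside had median fold enrichments of 3.58, 3.53 and 3.58 in the positive libraries, and those just outside 3.47, 3.34 and 3.61. In the negative libraries the medians were 2.51 and 2.497 just inside and 2.68 and 2.75 just outside.

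The place of members relative to common summits was limited by the choice, since a summit within 250 bp of one in the other population was left out and 45.9 to 53.7% of the shared regions listed only 1 summit, depending on the library. In a region with only 1 common summit a member could only count as beyond it. The same shares over other recurring summits are not given here, so the place does not set members apart from them. Of the positive-specific members, 271 (78.8%) lay beyond the outermost common summit, 16 (4.65%) between such summits and 57 (16.6%) in a region without one. Of the negative-specific members, 463 (85.4%) lay beyond, 11 (2.03%) between and 68 (12.5%) in a region without one. Positive-specific members were 218.5 bp from the edge of the merged region at the median, against 329 bp for all summits of positive replicate 1. Negative-specific members were 162.5 bp from it, against 331 bp for all summits of negative replicate 1. The nearest common summit was 505 bp away at the median for the 287 positive-specific members with one in their region (quartiles 352 and 702.5 bp), and 554 bp for the 474 negative-specific members (quartiles 405 and 757 bp). The same limit bears on these distances. Among recurring summits that were neither common nor members, those with a common summit in their region had medians of 274 bp (3525 summits of positive replicate 1) and 315 bp (6724 of negative replicate 1).

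The 2 kinds of site differed in place as well. Positive-specific members in no negative interval were 636 bp from the common summit and 186 bp from the edge of the region at the median, and those in an interval of both negative lists 377 and 300.5 bp. Negative-specific members in no positive interval were 624 and 149 bp away, and the 36 in an interval of all 3 positive lists 382 and 272 bp. Members outside the intervals of the other population were thus the farther ones in both directions. This order is tied to the split and is no separate result. A common summit has a match within 100 bp in every list of the other population, so each list has an interval at or near it. Uncovered members also had the lower fold enrichments, with median fold enrichments of 3.04, 2.99 and 3.28 in the positive libraries, against 3.59, 3.69 and 3.85 for covered positive-specific members. In the negative libraries the medians were 2.38 and 2.41 for uncovered members and 3.41 and 3.45 for those covered in all 3 positive lists. In percent of the strongest summit of the region the order was the other one for positive-specific members, with medians of 64.6%, 59.6% and 60.9% for uncovered and 56.0%, 55.3% and 57.1% for covered ones. Those covered in part of the negative lists had the highest medians, 69.8%, 65.8% and 67.5%, so this percent did not follow cover in steps. For negative-specific members the order differed between the libraries. The medians were 44.3% for uncovered and 42.1% for covered ones in negative replicate 1, and 37.7% and 47.0% in negative replicate 2. Members covered in part of the positive lists had 48.2% in negative replicate 1 and 37.6% in negative replicate 2.

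**Figure D3:**
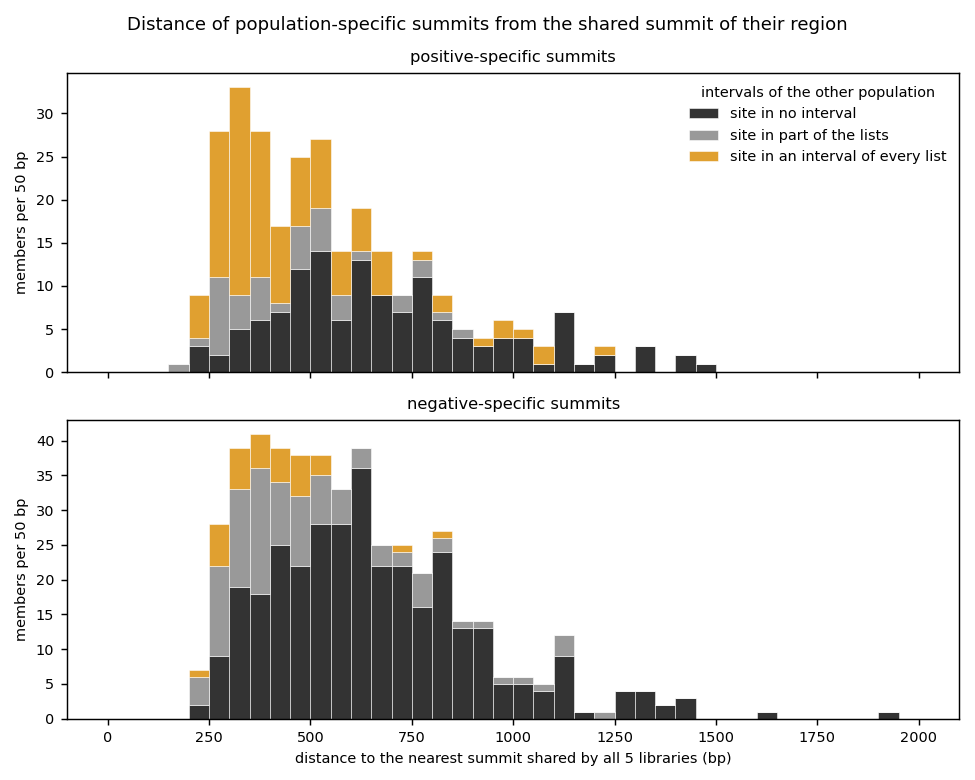
Members are counted in steps of 50 bp by their distance to the nearest summit shared by all 5 libraries within the same region, positive-specific above and negative-specific below, and the shades give whether the site lies in intervals of the other population. Sites in an interval of every list of the other population lie mostly at short distances (medians 377 bp above and 382 bp below), and sites in no interval farther out (636 and 624 bp). The split by intervals favours this order, since every list has a summit within 100 bp of a common one.

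The regions that hold population-specific summits were wide, which the choice favours. A member lies more than 250 bp from every summit of the other population, in a region where both populations have an interval. The 330 hosts of positive-specific summits had a median width of 1292 bp and the 495 hosts of negative-specific ones 1253 bp, against 882 bp for all shared regions. Among regions under 600 bp, none of the 6315 summits of positive replicate 1 and 6 of the 6089 of negative replicate 1 were members. Among regions of 1200 to 1800 bp, 0.982% and 1.57% of these summits were members. Host regions of positive-specific summits held 3.43, 3.49 and 3.23 summits on average in positive replicates 1, 2 and 3, and 1.90 and 2.11 in the negative libraries. All shared regions held 2.00, 2.06 and 1.89 in the positive and 1.83 and 2.07 in the negative libraries. In the population without the specific summit the hosts were therefore close to the average of all shared regions in number of summits. In their own population they held over 1 more, which the choice itself requires in part. The same was seen for hosts of negative-specific summits, with 2.08, 2.09 and 1.98 summits in the positive and 3.25 and 3.53 in the negative libraries. This average is not matched for width, and wider regions listed more summits each. Positive replicate 1 had 22779 summits in 13542 regions of 600 to 1200 bp and 15174 in 5217 regions of 1200 to 1800 bp. Hosts were not compared with other regions of equal width.

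Regions with several members were few. Of the hosts, 14 had 2 positive-specific summits, and 40 had 2, 2 had 3 and 1 had 4 negative-specific summits. The region with 4, on chromosome 14 from 11275325 to 11277172, listed 1 summit in each positive library, and 8 and 4 in negative replicates 1 and 2. Its members in negative replicate 1, at 11276346, 11276402, 11276900 and 11277038, had fold enrichments of 2.76, 3.08, 2.87 and 2.64, and matched only 2 summits of negative replicate 2, at 3.05 and 4.30. They count as 2 places more than as 4. The nearest positive summits were 523 to 874 bp away. A region on chromosome 1 from 144395626 to 144397740 listed 1, 2 and 2 summits in the positive and 7 and 6 in the negative libraries. Its strongest member, at 144396172, had 4.18 and 6.22 in the negative libraries, and the nearest positive summits were 861, 851 and 865 bp away at 4.85, 5.09 and 4.56. All 3 members of this region lay inside the interval of positive replicate 1 and in none of positive replicates 2 and 3. On the positive-specific side, a region on chromosome 8 from 5152641 to 5154224 had members at 5152861 and 5152953, both in no negative interval. Both matched the same summits of positive replicates 2 and 3, with 3.70 and 3.64. Regions on chromosome 19 from 1434646 to 1435926 and on chromosome 3 from 59332852 to 59334657 also held 2 positive-specific members each. The first of these listed 5, 4 and 5 summits in the positive and 2 and 2 in the negative libraries, and the second 4, 5 and 3 against 3 and 2.

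In 6 shared regions the summit differed in both directions, with a positive-specific and a negative-specific member in the same region. In the first, on chromosome 1 from 69328146 to 69329047, the positive-specific summit at 69328500 had fold enrichments of 4.96, 4.16 and 4.64 in the positive libraries. The negative-specific summit at 69328223, 277 bp away, had 2.57 and 3.55 in the negative libraries. Neither site lay in an interval of the other population, and a summit common to all lists stood on the other side of the positive-specific one. In the second, on chromosome 14 from 5464483 to 5466451, the members were 1212 bp apart, at 3.86, 2.92 and 3.33 in the positive libraries for the positive-specific and at 2.51 and 3.91 in the negative libraries for the negative-specific summit. The third, on chromosome 2 from 14884501 to 14885836, had no common summit. Its members were 835 bp apart, at 3.54, 3.93 and 3.34 in the positive and 2.53 and 2.04 in the negative libraries.

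The fourth of these regions was the strongest. It lay on chromosome 3 from 77916030 to 77917936 and ranked 2704, 3845 and 2504 among the intervals of the positive and 6988 and 9311 among those of the negative libraries. Its positive-specific summit, at 77916598 with 3.47, 4.13 and 4.41, lay inside the intervals of both negative lists, 324 and 313 bp from summits of 8.24 and 8.65. Its negative-specific summit, at 77916216 with 2.01 and 2.11, lay 382 bp farther out and in no positive interval. The fifth, on chromosome 11 from 18828256 to 18830113, had members 956 bp apart. The sixth, on chromosome 14 from 4342089 to 4344847, held 3 negative-specific members and 1 positive-specific member on opposite sides of its 2 common summits, 1469 to 2303 bp apart. None of the 14 members in these 6 regions was the strongest summit of its region in all libraries of its population.

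**Figure D4:**
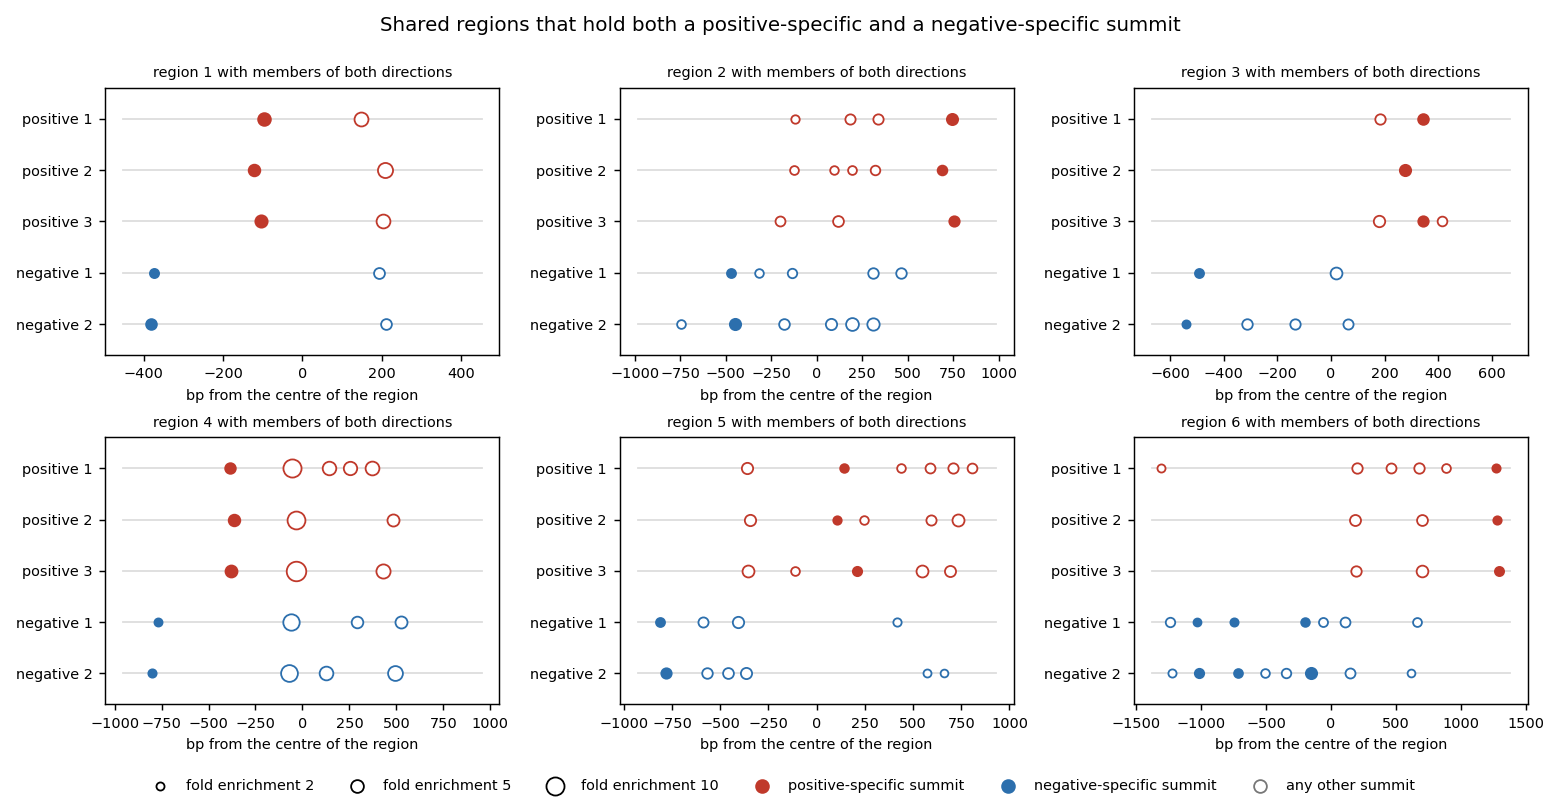
The 6 shared regions with members of both directions are drawn with the 5 libraries from top to bottom and summit positions in bp from the centre of the region; the area of a circle is proportional to fold enrichment over the local background of that library, and filled circles are positive-specific (red) and negative-specific (blue) summits with their matches. The members of a region are 277 to 2303 bp apart.

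The strength of a host region as a whole was examined by its rank. A host was counted as higher in one population when its rank was better in every library of that population than in every library of the other. Of the 330 hosts of positive-specific summits, 75 (22.7%) ranked higher in all positive libraries and 74 (22.4%) in all negative libraries. Among all shared regions the shares were 23.4% and 21.2%. Of the 495 hosts of negative-specific summits, 129 (26.1%) ranked higher in all positive and 135 (27.3%) in all negative libraries. The first pair of shares is near the background. The second is above it in both directions, and more so in the own direction of these hosts. It was 27.3% against 21.2% for all negative libraries and 26.1% against 23.4% for all positive ones, without a test. The median rank of the positive-specific hosts was 14922, 14417.5 and 15184.5 in the positive and 13593.5 and 15250.5 in the negative libraries. That of the negative-specific hosts was 15792, 17142 and 16483 in the positive and 14875 and 15894 in the negative libraries. The medians of all shared regions were 14817, 15232 and 15192 in the positive and 14994 and 15240 in the negative libraries. The negative-specific hosts thus had a later median rank than all shared regions in each positive library and in negative replicate 2.

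The neighbourhood of the hosts was also compared. A whole region was called population-specific when all lists of one population had it among their 50000 strongest and the lists of the other population had no interval there, which gave 2479 positive-specific and 2301 negative-specific regions on numbered chromosomes. Of the hosts of positive-specific summits, 11.52% had a positive-specific region within 20 kb and 45.2% within 100 kb, against 11.4% and 43.7% of all shared regions. Of the hosts of negative-specific summits, 10.5% had a negative-specific region within 20 kb and 39.8% within 100 kb, against 8.95% and 37.6% of all shared regions. These shares are close to the background for both directions. Members were spread over the chromosomes, with 0.677% of the summits of positive replicate 1 on chromosomes 1 to 9 and 0.666% on the higher-numbered ones chosen as positive-specific. For negative-specific summits the shares were 1.17% and 1.15%.

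Whether the specificity held in a library that had no part in the choice was examined by choosing the members again without each library in turn and looking them up in it. This is the only measure of presence here that the choice did not use. Chosen without it, 41.0% of 741 positive-specific summits had a summit within 100 bp in positive replicate 1, 54.7% of 629 in positive replicate 2 and 49.6% of 699 in positive replicate 3. In the negative libraries, to which such summits do not belong, the shares were 35.1% of 756 in negative replicate 1 and 48.5% of 1086 in negative replicate 2. The means were 48.5% ± 6.91 in positive libraries (SD, n = 3) and 41.8% ± 9.53 in negative libraries (SD, n = 2), and their ranges overlapped (two-sided exact permutation test over libraries, p = 0.4; adjusted by Benjamini-Hochberg over the 9 tests of this kind, 0.45). With 3 and 2 libraries the smallest p is 0.1, so no test of this design can pass 0.05. Exact means here that all 10 splits of the finished values were counted. Members were not chosen again for each split, and the choices behind the values share lists and differ in their conditions between the groups. The p-values of these permutation tests are therefore a description and not exact error rates. By comparison, most of all summits that recurred in the positive libraries of the choice were found in the library left out. The shares were 84.9%, 86.6% and 84.8% in positive replicates 1, 2 and 3, with 2 positive lists in the choice. In negative replicates 1 and 2 they were 87.0% and 90.4%, with 3 positive lists in the choice.

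For negative-specific summits the shares were 34.4%, 16.7% and 14.3% in positive replicates 1, 2 and 3, and 21.7% and 32.9% in negative replicates 1 and 2. The means were 21.8% ± 10.95 in positive libraries (SD, n = 3) and 27.3% ± 7.90 in negative libraries (SD, n = 2), again with overlapping ranges (two-sided exact permutation test, p = 0.6, adjusted 0.6). By comparison, all summits that recurred in the negative libraries of the choice were found in 86.0%, 82.9% and 82.5% of cases in positive replicates 1, 2 and 3. In negative replicates 1 and 2 the shares were 71.3% and 79.4%, where 1 negative list was left and no recurrence was required. The number combining both, the share of positive-specific minus that of negative-specific members found, was 6.66, 38.0 and 35.3 percentage points in the positive and 13.3 and 15.7 in the negative libraries. Its mean was 12.2 points higher in positive libraries (two-sided exact permutation test, p = 0.4, adjusted 0.45). The difference was 22.2 points without positive replicate 1 and 6.50 without positive replicate 2. The combined number was lowest in positive replicate 1, which shares its form of library name with negative replicate 1, and the part of library naming in this was not tested. A library left out of the negative group leaves 3 positive lists and 1 negative list for the choice, and one left out of the positive group leaves 2 and 2, so the shares do not rest on the same conditions.

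The 2 kinds of site were then taken apart, a comparison added after the first result had been seen. The split goes by intervals of the other population, which bears on the outcome, so the comparisons within each kind are no check of specificity. Positive-specific summits at sites in no negative interval were found in 61.7%, 64.8% and 57.9% of cases in positive replicates 1, 2 and 3, and in 21.5% and 40.6% in negative replicates 1 and 2. The groups did not overlap, with means of 61.5% ± 3.43 (SD, n = 3) and 31.02% ± 13.5 (SD, n = 2; two-sided exact permutation test, p = 0.1, the smallest possible, adjusted 0.225). Positive-specific summits inside an interval of every negative list were found in 31.7%, 47.2% and 43.5% of cases in the positive and in 44.6% and 54.5% in the negative libraries (means 40.8% ± 8.09, SD, n = 3, and 49.6% ± 7.02, SD, n = 2; exact permutation test, p = 0.4, adjusted 0.45). The mean share of this second kind was lower in the positive than in the negative libraries, within overlapping ranges. The part of the split in this order was not tested. All 10 leading positive-specific members lie at sites of this kind.

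Negative-specific summits in no positive interval were found in 31.7%, 10.99% and 8.13% of cases in positive replicates 1, 2 and 3, and in 23.1% and 36.3% in negative replicates 1 and 2 (two-sided exact permutation test, p = 0.3, adjusted 0.45). Positive replicate 1 alone made these groups overlap. Those inside an interval of every positive list were found more often in the positive libraries, at 52.8%, 36.8% and 32.7%, than in the negative libraries, at 13.7% and 20.8%, which is against their direction (exact permutation test, p = 0.1, adjusted 0.225). The combined number was 30.1, 53.8 and 49.8 points in the positive and -1.66 and 4.30 in the negative libraries for sites in no interval of the other population, and -21.1, 10.4 and 10.9 against 30.9 and 33.7 points for sites covered in every list. This split is not independent of the outcome. It goes by intervals of the other population in the remaining lists, and positive-specific sites in no such interval lay in an interval of the library left out in 36.9% (negative replicate 1) and 50.4% (negative replicate 2) of cases, against 93.2% and 94.0% of covered sites. For negative-specific sites the shares were 47.2%, 13.2% and 12.1% of uncovered and 97.2%, 80.9% and 82.7% of covered sites in positive replicates 1, 2 and 3. The opposite directions for the 2 kinds of site, and the tests within each kind, are therefore no check of specificity. In their own population the covered sites had a summit less often, though they lay more often in an interval of the library left out. Intervals of positive replicates 1, 2 and 3 held 89.1%, 68.9% and 66.5% of uncovered and 97.3%, 86.6% and 89.7% of covered positive-specific sites. For negative-specific sites the shares were 47.9% and 56.2% against 95.3% and 96.5% in negative replicates 1 and 2. How far the split accounts for the opposite directions was not tested.

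**Figure D5:**
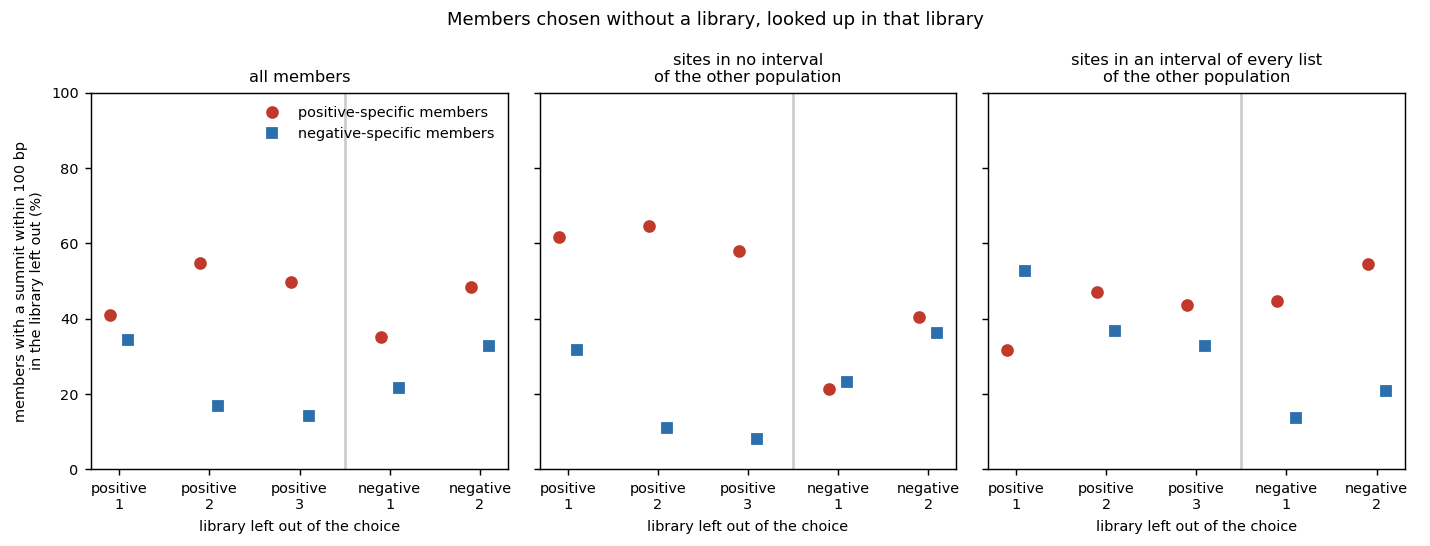
Members were chosen again without each of the 5 libraries (horizontal axis), and the share with a summit within 100 bp in that library is plotted in percent for positive-specific (circles) and negative-specific members (squares); the panels show all members, those at sites in no interval of the other population and those at sites in an interval of every list of it. At sites in no interval, circles lie at 57.9 to 64.8% in the positive and 21.5 and 40.6% in the negative libraries, and at covered sites at 31.7 to 47.2% and 44.6 and 54.5%.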

How the data were processed

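Each deposited list holds the accessible intervals of 1 library. Bowtie2, MACS2 and the build galGal5 are named in the submitters' processing notes; versions, duplicate handling and any Tn5 shift are not given in the sources used here. The deposited columns are a fold enrichment of each summit over local background (a ratio), a −log10 p and a −log10 q value, a score of 10 times the latter (not used), and positions. Rows with q of 0.05 or less were listed.

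Unique intervals were ranked by their highest fold enrichment, the strongest 50000 of each list were merged where they shared at least 1 bp, and regions with one in all 5 lists were kept. Summits of every row were compared as stated above. Covered means that the summit base lies in an interval. Python 3.11.15 with numpy 2.4.6 and pandas 2.3.3 was used, and the code of the choice was run on simulated lists with planted summits. Those lists had no missed summits, so this checks the code and not the choice in real lists. One value per library was compared by an exact permutation test over 10 splits, without choosing members again for each split. Named members are the 10 of lowest mean rank per direction, 1 per region, the regions with both directions and those with most members. Members, lists and limits were chosen with earlier results of these data known. Motifs and genes at the summits are not analysed here, for want of a galGal5 sequence.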

Additional observations from a re-analysis of the deposited data

How the results depend on the processing

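The lists hold no counts, so libraries could not be matched for depth, and an absent summit is one not listed at the depth of that library. In the order positive-specific and negative-specific, 344 and 542 summits became 154 and 205 in the strongest 20000 intervals, 528 and 822 in all intervals, 1415 and 1701 with a 100 bp and 112 and 149 with a 500 bp exclusion. Matching within 50 or 200 bp gave 184 or 555 positive-specific summits, and the strongest summit of each interval alone gave 295 and 213. Lists of equal length gave 320 negative-specific summits, with 290 positive-specific and 219 negative-specific members kept. The percent covered by intervals of the other population was 65.6 and 28.5 with 20000 intervals and 15.2 and 4.70 with 500 bp. With equal lengths it was 48.7 and 24.4. The distance to the common summit was 737 and 725 bp with 500 bp, and 513, 522 and 531 bp (positive-specific) with 20000 intervals, q of 0.01 and equal lengths. The percent of the strongest summit was 44.0 and 28.4 with 20000 intervals, 64.9 and 57.5 with equal lengths, and 51.3 and 62.3 (positive-specific) with 500 bp and q of 0.01. Hosts ranked higher in their own population were 18.1% and 14.0% with 20000 intervals, and 1 region held both directions there and with 500 bp. The share of hosts over all shared regions is given for the main setting only. It is no background for the host shares at the other settings, here and without a library. Without each library in turn, which removes a condition, the counts ranged over 629 to 1086 and 776 to 2147, the percent covered over 52.3 to 68.1 and 15.5 to 26.5, the distance over 440 to 468 and 452 to 541.5 bp, the percent of the strongest over 50.3 to 64.2 and 34.4 to 45.8, the hosts over 25.5 to 40.1% and 28.6 to 35.0%, and regions with both over 17 to 43. The combined number in libraries left out of the choice, 12.2 points, was -0.0561 with 20000 intervals and -32.2 at sites covered in every list. It was 45.7 with 500 bp, 17.5 with equal lengths and 16.1 with q of 0.01. At sites in no interval of the other population it was 43.2. Dropping 1 library from the comparison gave 6.50 to 22.2. Replicates 1 and 2 of both groups share numbers. In the replicate block, positive replicate 3 was left out of the choice of summits but kept for the regions, common summits and cover. The exclusion was applied only against the library of the same number. The block gave 654 positive-specific summits, 52.1% and 26.1% covered, 474 bp (positive-specific) and 12 regions with both. The combined number differed by -6.69 and 22.3 points in the pairs. Deviations of same-numbered libraries correlated at 0.19, but 2 pairs do not show that the numbers pair the samples. The libraries of each form of name alone, added after seeing the data, gave 6115 and 4255 with the first (1 library a group) and 1440 and 3457 with the second. Why the values moved was not tested. Planned motif alternatives were not run.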
